A study of Mus musculus domesticus and Mus musculus domesticus x Mus musculus castaneus and Mus musculus castaneus with 27 samples.

Results

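Pluripotent stem cells (PSC) of the genotype CAS129, labelled an F1 hybrid (Mmd x Mmc) and carrying a name that joins the strains CAST/EiJ (CAST) and 129S6/SvEv (129), were compared with PSC of the inbred CAST strain. The comparison used 4 of the 27 samples of the series, 2 CAS129 PSC and 2 CAST PSC libraries, and a table of read counts for 27071 genes. Within it, 457 genes were set apart by rule, because they had 0 counts in both CAS129 PSC libraries and a level of at least 10 CPM (read counts relative to the total of their library) in both CAST PSC libraries. The study concerned differences in neurite growth between neurons made from stem cells of several mouse strains, and these libraries describe the stem cells. Neither the mother's strain nor the number of lines or clones behind a group is given in the labels. Nor is it stated that numbered replicates came from separate cultures, and every p-value here rests on the spread of these libraries alone, part or all of which could be technical.

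The other groups used beside them were 2 PSC libraries of C57BL/6 (BL6), fitted together with the 4 compared, and motor neurons (MN) differentiated from stem cells: 3 CAS129 MN, 1 129CAS MN, 1 CAST MN, 2 129 MN and 7 BL6 MN libraries. No treatment, transgene, age or batch is given in the labels of these 20 libraries. Total counts were 5509848 and 4497912 in CAS129 PSC, 8723599 and 8389385 in CAST PSC, and 12993761 and 13620056 in BL6 PSC, so the hybrid libraries were the shallowest. CAS129 PSC libraries held 1 or more counts for 14725 and 13981 genes, against 16340 and 16288 genes in CAST PSC. Levels are CPM scaled with TMM factors, so sequencing depth is allowed for, while gene length is not, and levels of different genes are not compared.

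Mouse PSC keep themselves undifferentiated with a core of transcription factors, among them Pou5f1 and Sox2, supported by naive factors such as Esrrb, Tfcp2l1 and Zfp42. Cells that leave this naive state pass through a formative and then a primed state, in which factors such as Otx2, Pou3f1, Zic2 and the DNA methyltransferase Dnmt3a are known to rise. Nodal and activin signal through type I and type II receptors to Smad2 and Smad3; Nodal needs the membrane co-receptor encoded by Tdgf1 (Cripto), and Foxh1 is a DNA-binding partner of the activated Smads.

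Both groups had the profile of stem cells. The 8 stem cell markers in the table summed to 4259 and 4122 CPM in CAS129 PSC, against 4577 and 4581 CPM in CAST PSC, and only Tdgf1 and Utf1 among them passed the test. The 6 neuronal markers summed to 78.8 and 58 CPM in CAS129 PSC, against 213 and 182 CPM in CAST PSC, with Dcx and Map2 at 0 in both CAS129 libraries. Dcx had at most 0.131 CPM in CAST PSC too, and Map2 was also at 0 in all 4 hybrid MN libraries, against 539 CPM in CAST MN. The 8 fibroblast or feeder markers summed to 1508 and 300 CPM in CAS129 PSC, against 3444 and 1435 CPM in CAST PSC, led by Col1a1 at means of 480 and 1419 CPM; none of the 8 was at 0 and none passed the test. Endoderm markers summed to 16.8 and 20.8 CPM in CAS129 PSC, against 8.82 and 17 CPM in CAST PSC, and trophoblast markers to 9.29 and 10.6 CPM against 11.5 and 20.2 CPM. In bulk RNA, fewer cells of a type and less RNA per cell cannot be told apart.

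Far more genes were lower than higher in the hybrid. Of 13795 genes tested with edgeR's quasi-likelihood test (Benjamini-Hochberg adjusted p, threshold 0.05), 313 (2.27%) were higher and 1620 (11.7%) lower in CAS129 PSC than in CAST PSC, 14.0% in either direction. The count leaned on the libraries used: without CAS129 PSC 1 it was 103 higher and 1078 lower, without CAS129 PSC 2 it was 127 and 1193, without CAST PSC 1 it was 64 and 1020, and without CAST PSC 2 it was 73 and 1046. Without BL6 PSC 1 or BL6 PSC 2, which enter the estimate of spread and the filter on low values, 538 and 487 genes were higher. Upper-quartile scaling moved the median log2 fold change of all genes to 0.14, against -0.06 with TMM, and gave 580 higher and 1418 lower.

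Many of the lower genes also had few or no counts in hybrid MN. Of the 1620 lower genes, 457 were the set-apart genes and 1163 were not. A partly overlapping 839 (51.8%) averaged at least 1 CPM over the BL6, CAST and 129 MN libraries. Their mean in the CAS129 and 129CAS MN libraries was more than 8 times below that. Each library weighed alike, so in the first average the 7 BL6 libraries outweighed the 1 CAST and 2 129 libraries. A gene high mainly in BL6 MN could thus qualify without being that much lower than in CAST or 129 MN. Of the 13795 genes tested, 1000 (7.25%) met that description. Genes averaging below 1 CPM in BL6, CAST and 129 MN could not meet it, whatever their hybrid MN counts. With these 1000 genes left out before scaling, an alternative added after seeing the data, 155 of 12795 genes (1.21%) were higher and 556 (4.35%) lower, all of them also called with every gene in the fit, and the median log2 fold change was -0.005. They are called genes low in hybrid MN below, and gene lists that hold any are given with and without them. The cause of their low counts was not tested.

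**Figure D1:**
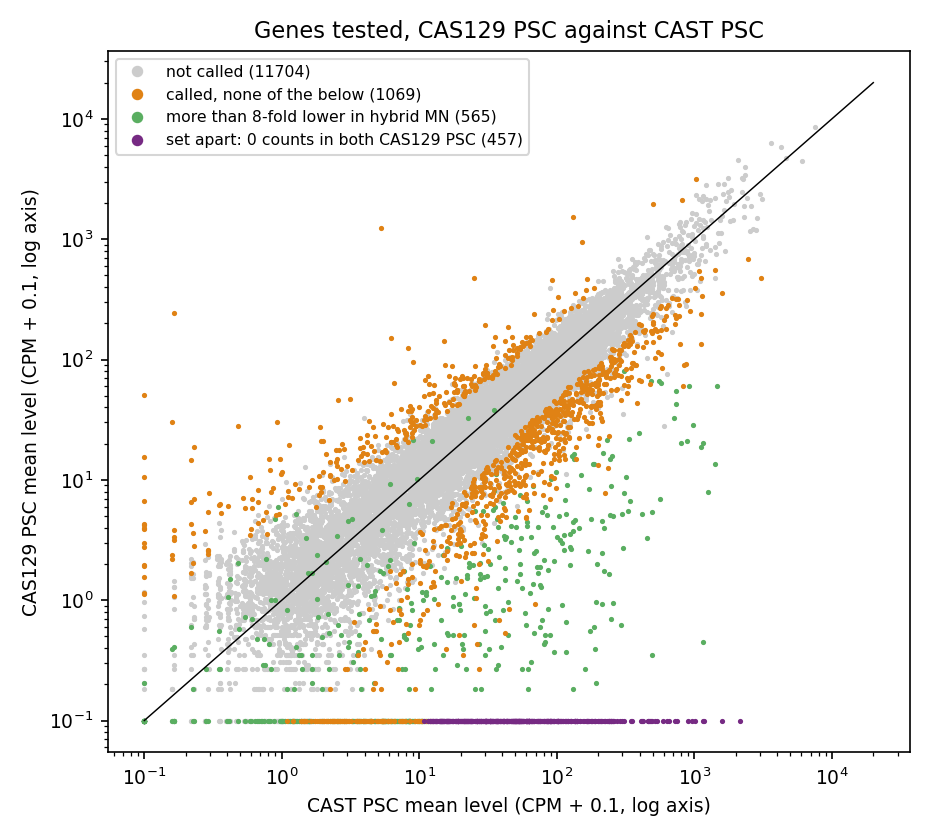
Mean level of each gene tested in CAS129 PSC (vertical axis) against CAST PSC (horizontal axis), both in CPM with 0.1 added and on log axes; the line marks equal levels. Purple points are the 457 set-apart genes, lying at 0 counts in CAS129 PSC from 10.7 to 2159 CPM in CAST PSC, green points are further genes more than 8-fold lower in hybrid MN whether called or not, orange points are the other called genes, and grey points are the rest.

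Tdgf1, the Nodal co-receptor gene, was the clearest stem cell gene to rise. It measured 948 and 930 CPM in CAS129 PSC, against 178 and 125 CPM in CAST PSC, with 1122 and 1016 CPM in BL6 PSC. It averaged 939 ± 12.6 CPM in CAS129 PSC and 152 ± 37.5 CPM in CAST PSC (SD, n = 2 each). The hybrid pair lay above both CAST libraries and close to the BL6 pair. Its log2 fold change was 2.63 ± 0.32 (SE, adjusted p = 5.8e-04, edgeR), stayed between 2.40 and 2.90 when each of the 6 libraries was left out in turn, and remained called every time. Tdgf1 lies at chr9:110939603-110946158 on the minus strand of GRCm38.

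The core and naive pluripotency genes otherwise differed little. Of 25 genes tested on that list, 2 were higher (8%, against 2.27% of all genes) and 1 lower (4%, against 11.7%). The list median log2 fold change was 0.22, against -0.06 for all genes. None of the 25 was low in hybrid MN, which a gene scarcely counted in BL6, CAST and 129 MN, such as Tdgf1, could not be. Pou5f1, the gene of Oct4, measured 817 and 1046 CPM in CAS129 PSC and 1229 and 1784 CPM in CAST PSC, a log2 fold change of -0.69 ± 0.42 (adjusted p = 0.34, edgeR). Sox2, its partner factor, measured 426 and 450 CPM in CAS129 PSC and 497 and 389 CPM in CAST PSC, so the groups overlapped, and its log2 fold change of -0.02 turned to 0.19 under upper-quartile scaling. Esrrb had 635 and 389 CPM in CAS129 PSC and 811 and 530 CPM in CAST PSC. Tfcp2l1 had 1138 and 689 CPM in CAS129 PSC and 644 and 446 CPM in CAST PSC, and neither gene passed the test.

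Tcl1, a cofactor of the Akt kinases that is abundant in mouse embryonic stem cells, measured 166 and 119 CPM in CAS129 PSC, against 48.5 and 35 CPM in CAST PSC and 18.7 and 35.8 CPM in BL6 PSC. The hybrid libraries were the highest of the 6, and the log2 fold change was 1.77 ± 0.40 (adjusted p = 0.018, edgeR). Utf1, a chromatin factor of undifferentiated embryonic cells, went the other way, at 305 and 265 CPM in CAS129 PSC against 775 and 784 CPM in CAST PSC, a log2 fold change of -1.45 ± 0.37 (adjusted p = 0.033, edgeR). The call for Tcl1 was lost without CAS129 PSC 1 (edgeR, adjusted p = 0.1), CAST PSC 1 (0.069) or CAST PSC 2 (0.16). That for Utf1 was lost whichever of the 4 libraries was left out (adjusted p = 0.13 to 0.17) and without genes low in hybrid MN (0.053), edgeR in each case.

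Genes of the formative and primed states were lower in the hybrid or did not pass the test. Of 18 tested, 6 were lower (33.3%, against the 11.7% of all genes) and none higher, with a median log2 fold change of -0.72. None was low in hybrid MN, which genes scarcely counted in BL6, CAST and 129 MN could not be. Without genes low in hybrid MN, 5 stayed lower. Without CAS129 PSC 1 the count was 2, and without CAS129 PSC 2, CAST PSC 1 or CAST PSC 2 it was 7, 4 and 5. Zic2, a zinc-finger factor of the Zic family, measured 62.7 and 74.6 CPM in CAS129 PSC, against 208 and 195 CPM in CAST PSC and 64 and 67.1 CPM in BL6 PSC, so that here CAST and not the hybrid stood apart from BL6. Its log2 fold change was -1.55 ± 0.28 (adjusted p = 0.0057, edgeR), and the call was lost without CAS129 PSC 1 (0.071) or CAST PSC 1 (0.051).

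Zic5, the neighbour of Zic2 on chromosome 14, had 15.6 and 33.9 CPM in CAS129 PSC against 110 and 81.1 CPM in CAST PSC, and its call (adjusted p = 0.032, edgeR) was lost without CAS129 PSC 1 (0.18), CAST PSC 1 (0.19) or CAST PSC 2 (0.063). Pou3f1 (Oct6), a POU factor of the primed state, had 2.32 and 4.57 CPM against 17.1 and 21 CPM, and Sox3, an X-linked relative of Sox2, 1.99 and 2.91 CPM against 15.2 and 16.2 CPM. Both calls were lost without CAS129 PSC 1, at log2 fold changes of -2.05 and -2.42. Otx2, the head and epiblast homeobox factor, did not pass, at 13.8 and 31.8 CPM in CAS129 PSC and 42.2 and 50.4 CPM in CAST PSC. Fgf5, the usual marker of the primed epiblast, had no more than 2.59 CPM in any of the 4 libraries.

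**Figure D2:**
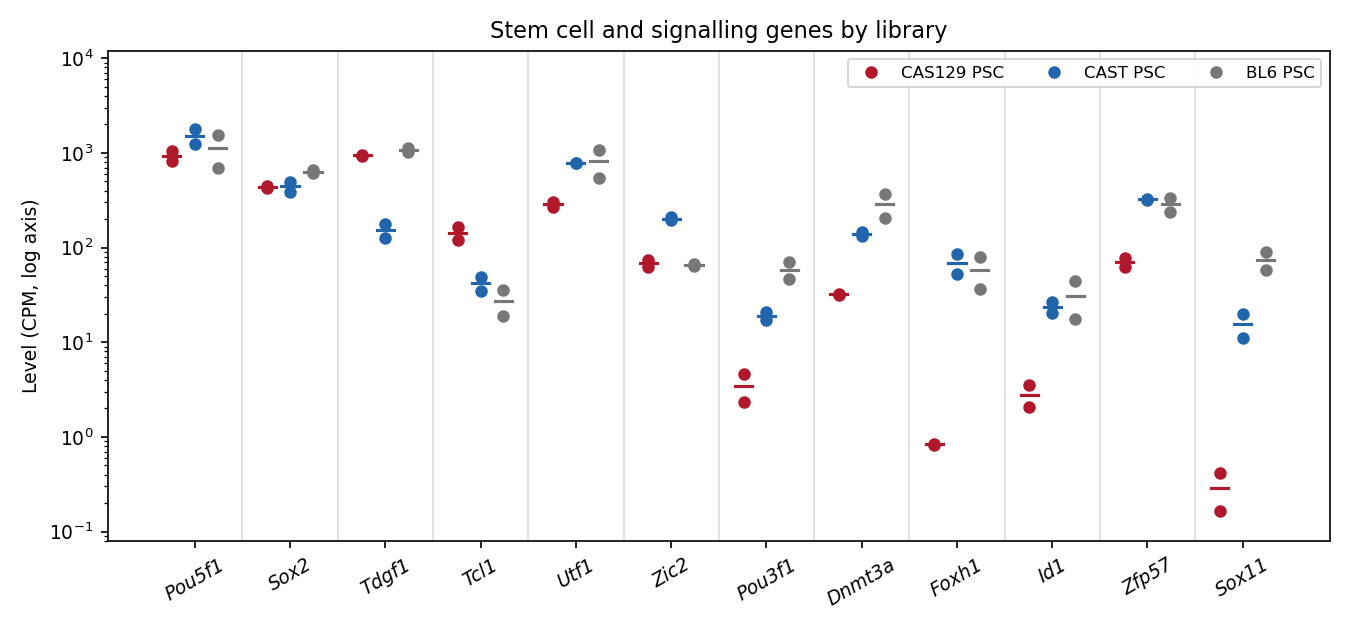
Level of 12 stem cell and signalling genes in each PSC library (points) with the group mean (bars), in CPM on a log axis, for CAS129 PSC, CAST PSC and BL6 PSC. Tdgf1 and Tcl1 are higher in both CAS129 libraries than in both CAST libraries, Sox2 overlaps, and Foxh1, Id1, Zfp57 and Sox11 lie below both CAST libraries, Foxh1 at 0.83 and 0.831 CPM.

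Downstream of the co-receptor, the Nodal and activin list moved unevenly. Of 17 genes tested, Tdgf1 was higher and 3 were lower (17.6%, against 11.7% of all genes). No gene on the list was low in hybrid MN, which genes scarcely counted in BL6, CAST and 129 MN could not be. Nodal, the ligand, had 183 and 75 CPM in CAS129 PSC and 101 and 46 CPM in CAST PSC, overlapping groups (adjusted p = 0.34, edgeR). Acvr1b, a type I receptor for activin and Nodal, measured 14.9 and 15 CPM in CAS129 PSC, against 46.1 and 38.6 CPM in CAST PSC, and Acvr2b, a type II receptor, 12.4 and 12.1 CPM against 33.2 and 28 CPM. Their log2 fold changes were -1.50 and -1.32 (adjusted p = 0.012 and 0.027, edgeR), and both calls were lost whichever of the 4 libraries was left out, with adjusted p up to 0.1 for Acvr1b and 0.18 for Acvr2b; the list then kept 1 lower gene. Smad2, the signal transducer, did not pass at 65.4 and 74.8 CPM in CAS129 PSC and 86.3 and 93.5 CPM in CAST PSC.

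Foxh1, the nuclear partner of the Smads, had few counted reads in the hybrid. It had 0.83 and 0.831 CPM in CAS129 PSC, from 5 and 4 counts, against 52 and 85.9 CPM in CAST PSC and 36.6 and 80.1 CPM in BL6 PSC. Its log2 fold change was -6.35 ± 0.60 (adjusted p = 1.4e-04, edgeR) and stayed called whichever library was left out, between -6.67 and -5.95. Every MN library held 0.253 CPM or less of Foxh1, so the MN libraries cannot show whether its reads are also missing from hybrid MN. Low expression and uncounted reads cannot be told apart for this gene.

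A pair of BMP targets were lower. Id1, a helix-loop-helix inhibitor that BMP induces in mouse embryonic stem cells, measured 3.49 and 2.08 CPM in CAS129 PSC against 26.6 and 20.2 CPM in CAST PSC, a log2 fold change of -3.05 ± 0.56 (adjusted p = 0.0071, edgeR; 0.055 without CAS129 PSC 2). Its relative Id3 had 0.83 and 1.04 CPM in CAS129 PSC against 43.4 and 6.68 CPM in CAST PSC, where the CAST pair itself was uneven, and Id3 was also low in hybrid MN. Id3 lost its call without CAS129 PSC 1 (edgeR, adjusted p = 0.087) or CAS129 PSC 2 (0.054). These were the 2 lower genes of 13 tested on the BMP list (15.4%, against 11.7% of all genes), and none was higher; without genes low in hybrid MN, 1 of 12 was lower.

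On the Wnt list 2 of 19 genes tested were lower (10.5%, near the 11.7% of all genes) and none higher. Ctnnb1, which encodes beta-catenin, the transducer of the Wnt signal, had 272 and 511 CPM in CAS129 PSC and 988 and 1035 CPM in CAST PSC (log2 fold change -1.37, adjusted p = 0.035, edgeR). Gsk3b, the kinase that marks beta-catenin for destruction, had 34.7 and 41.8 CPM in CAS129 PSC and 112 and 90.9 CPM in CAST PSC (log2 fold change -1.41, adjusted p = 0.018, edgeR). The Ctnnb1 call was lost without CAS129 PSC 1 (0.2), CAST PSC 1 (0.14), CAST PSC 2 (0.18) or genes low in hybrid MN (0.058), and that of Gsk3b whichever of the 4 libraries was left out (0.069 to 0.16). The list median of -1.06 kept its sign under each scaling, filter, tool and left-out library tried, between -1.10 and -0.47. Of 17 genes on the FGF and ERK list, Fgfr2 alone passed (5.88% lower, against 11.7% of all genes). It had 7.14 and 10.2 CPM in CAS129 PSC against 29.3 and 24.8 CPM in CAST PSC. Its call too was lost whichever of the 4 was left out, at log2 fold changes of -1.91 to -1.40.

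Some neuronal genes, whose transcripts stem cell cultures carry at low levels, were lower in the hybrid. Of 26 neuronal genes tested, 7 were lower (26.9%, against 11.7% of all genes) and none higher, the median log2 fold change was -1.14, and 25 of the 26 were below 0. Without genes low in hybrid MN, 3 of 24 were lower, against 4.35% of all genes in that fit. With 1 CAS129 or CAST library left out, 4 or 5 of the list were lower, and Elavl4 and L1cam lost their calls in each case (edgeR, adjusted p = 0.14 to 0.24). Sox11, a transcription factor of immature neurons and of the primed epiblast, measured 0.166 and 0.416 CPM in CAS129 PSC, from 1 and 2 counts, against 11.1 and 19.8 CPM in CAST PSC, from 94 and 151 counts. BL6 PSC held 89.1 and 57.9 CPM. The 3 counts against 245 make it 54.9-fold lower in CAS129 PSC, with a 95% exact counting interval of 18.6 to 268 that covers counting error only (adjusted p = 3.8e-04, edgeR).

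Sox11 was well detected in hybrid MN, at 72.3 to 79.5 CPM in CAS129 MN and 227 CPM in 129CAS MN, against 154 to 266 CPM in BL6 MN and 375 CPM in CAST MN. Stmn2, a microtubule regulator of growing axons, had 35.8 and 25.4 CPM in CAS129 PSC against 113 and 114 CPM in CAST PSC, a log2 fold change of -1.89 ± 0.30 (adjusted p = 0.003, edgeR) that was called whichever library was left out. Nefm, a neurofilament gene, had 1.99 and 0.416 CPM against 12.9 and 12.4 CPM. Mapt, which encodes tau, is one of the set-apart genes, at 0 and 0 CPM in CAS129 PSC against 135 and 143 CPM in CAST PSC and 12.4 and 21.4 CPM in BL6 PSC; it was also at 0 in all 4 hybrid MN libraries. Hes1, a Notch target that holds progenitors undifferentiated, was the 1 lower gene of 8 neural progenitor genes tested (12.5%, near the 11.7% of all genes). It was also the 1 lower gene of 7 without genes low in hybrid MN. Hes1 had 10.1 and 9.14 CPM in CAS129 PSC against 55.5 and 41.3 CPM in CAST PSC (log2 fold change -2.33 ± 0.33, adjusted p = 0.0016, edgeR).

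DNA methylation genes gave 2 lower of 11 tested (18.2%, against 11.7% of all genes), Dnmt3a and Zfp57. With 1 library left out, their log2 fold changes stayed between -2.19 and -2.05 and between -2.35 and -2.03. Dnmt3a, a de novo DNA methyltransferase, measured 31.9 and 32.2 CPM in CAS129 PSC, against 133 and 146 CPM in CAST PSC and 207 and 366 CPM in BL6 PSC. Its log2 fold change was -2.12 ± 0.35 (adjusted p = 0.0036, edgeR), with no overlap between groups. Zfp57, a zinc-finger protein that protects the methylation of imprinted regions, measured 78.5 and 62.8 CPM in CAS129 PSC against 321 and 323 CPM in CAST PSC, a log2 fold change of -2.19 ± 0.32 (adjusted p = 0.0017, edgeR).

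Of 28 imprinted genes tested, 6 were lower (21.4%, against 11.7% of all genes) and none higher. Of the 6, 3 were low in hybrid MN. Without such genes only 2 of 25 passed, beside 4.35% of all genes lower in that fit. Mest, expressed from the paternal copy, had 28.9 and 36.8 CPM in CAS129 PSC against 258 and 161 CPM in CAST PSC, a log2 fold change of -2.68 ± 0.35 (adjusted p = 9.2e-04, edgeR). BL6 PSC held 60.5 and 52.2 CPM of Mest, below both CAST libraries. Ndn, another paternally expressed gene, had 1.33 and 2.29 CPM in CAS129 PSC against 10.8 and 10.2 CPM. Its call was lost without CAS129 PSC 1 or CAST PSC 1, at log2 fold changes of -2.19 and -2.51. Peg10 was set apart, at 0 against 142 and 334 CPM, and Gnas, a complex imprinted locus, had 12.3 and 31.4 CPM against 251 and 414 CPM with a like deficit in CAS129 MN (60.7 to 84.4 CPM, against 1747 to 2230 CPM in BL6 MN). These counts do not separate the parental alleles.

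Germline genes gave 3 lower of 13 (23.1%, against 11.7% of all genes), and 2 of 12 without genes low in hybrid MN. Stk31, a germ-cell kinase-domain gene, had 11.1 and 18.5 CPM in CAS129 PSC and 83.8 and 106 CPM in CAST PSC, while BL6 PSC held 8.71 and 2.98 CPM, so that CAST was the high group (log2 fold change -2.68, adjusted p = 0.0091, edgeR; 0.089 without CAS129 PSC 1). Rhox5, an X-linked homeobox gene, had 2 counts in the hybrid pair and 2574 in the CAST pair, or 864-fold lower with a 95% exact counting interval of 239 to 7142; it was low in hybrid MN as well. Tdrd12, a Tudor-domain gene of the piRNA pathway, was set apart at 0 against 100 and 114 CPM.

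Growth and housekeeping lists held genes called in both directions. Of 74 cytosolic ribosomal protein genes tested, 4 were higher (5.41%, against 2.27% of all genes) and 16 lower (21.6%, against 11.7%), yet the list median was 0.47. Of those 16, 4 were set apart and all but Rpl35 and Rps7 of the rest were low in hybrid MN. Without such genes the list gave 3 higher and 1 lower of 58, beside 1.21% and 4.35% of all genes in that fit. The number higher was 1 without CAS129 PSC 2 or CAST PSC 1, 2 without CAST PSC 2, and 11 and 10 without BL6 PSC 1 and BL6 PSC 2. Rps14 shows the pattern, with 15.6 and 11.2 CPM in CAS129 PSC against 1211 and 1614 CPM in CAST PSC. Rps4x, the X-linked copy of a small-subunit gene, instead had 2983 and 3378 CPM in CAS129 PSC against 816 and 1225 CPM (log2 fold change 1.64, adjusted p = 0.0098, edgeR; 0.056 without CAS129 PSC 2 and 0.13 without CAST PSC 1). Rps10 had 1677 and 2238 CPM in CAS129 PSC against 406 and 592 CPM in CAST PSC and only 16.1 and 32.6 CPM in BL6 PSC; its call was lost without CAS129 PSC 2 (0.067), CAST PSC 1 (0.12) or CAST PSC 2 (0.053). Ribosomal protein genes have many near-identical copies, so the placing of their reads is uncertain.

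Of 20 cytosolic tRNA synthetase genes tested, 7 were lower (35%, against 11.7% of all genes) and none higher. The set-apart genes Vars and Mars were among them. Without genes low in hybrid MN, 5 of 18 stayed lower, beside 4.35% of all genes in that fit. Eprs, which charges glutamate and proline tRNAs, had 173 and 184 CPM in CAS129 PSC against 635 and 616 CPM in CAST PSC, a log2 fold change of -1.81 ± 0.28 (adjusted p = 0.0025, edgeR). Nars, the asparagine enzyme, had 85.5 and 85.2 CPM against 372 and 316 CPM, and Kars, the lysine enzyme, 193 and 161 CPM against 549 and 592 CPM. Eprs and Nars were called whichever library was left out, and Kars was lost without CAS129 PSC 1 (0.051), CAS129 PSC 2 (0.078) or CAST PSC 2 (0.065).

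Among stress genes, Mdm2, the ubiquitin ligase that restrains p53 and is itself a p53 target, had 66.2 and 53 CPM in CAS129 PSC against 346 and 309 CPM in CAST PSC, a log2 fold change of -2.46 ± 0.31 (adjusted p = 8.5e-04, edgeR). It was the 1 lower gene of 15 p53 targets tested (6.67%, against 11.7% of all genes). Hspa5, the endoplasmic reticulum chaperone BiP, had 196 and 199 CPM against 696 and 740 CPM, and its call (edgeR, adjusted p = 0.0097) was lost whichever of the 4 libraries was left out (0.057 to 0.088). Hspb1, a small heat shock protein gene, was low in both groups, at 3.82 and 5.4 CPM in CAS129 PSC and 1.06 and 0.524 CPM in CAST PSC, beside 431 and 629 CPM in BL6 PSC. It was called higher in CAS129 PSC (log2 fold change 2.50, adjusted p = 0.0085, edgeR). That call was lost without CAS129 PSC 2 or CAST PSC 2, at 2.24 and 2.10. The heat shock list gave 1 higher and 2 lower of 13 (7.69% and 15.4%, against 2.27% and 11.7% of all genes). Without genes low in hybrid MN it gave 0 higher and 1 lower of 11. Antioxidant genes gave 3 lower of 19 (15.8%, against 11.7% of all genes), Txnrd1, Srxn1 and Ddit3. Each of them was low in hybrid MN, and without such genes the count was 0 of 16. The interferon list gave 1 higher of 16 (6.25%, against 2.27% of all genes), Stat2. The cell cycle list gave 3 lower of 24 (12.5%, near the 11.7% of all genes), Pcna, Mcm4 and Ccnd3. The glycolysis list gave 1 higher (Pfkm) and 1 lower (Pgk1) of 17, or 5.88% each way. Without genes low in hybrid MN these lists gave no call. Mcm4 and Ccnd3 lost their calls whichever of the 4 compared libraries was left out. The calls of Stat2 and Pfkm were lost whichever of the 4 libraries was left out (edgeR, adjusted p = 0.12 to 0.34 and 0.15 to 0.32).

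The remaining lists added single genes. Twist1, a mesenchymal helix-loop-helix factor, was the 1 lower gene of 17 mesenchyme and fibroblast genes tested (5.88%, against 11.7% of all genes). It had 0.332 and 0 CPM in CAS129 PSC against 6.23 and 7.47 CPM in CAST PSC. Esrp1, an epithelial splicing regulator, was the 1 lower gene of 15 epithelial genes tested (6.67%, against 11.7% of all genes). It had 4.98 and 4.99 CPM in CAS129 PSC against 27.1 and 28.9 CPM in CAST PSC (log2 fold change -2.49 ± 0.31, adjusted p = 7.3e-04, edgeR). No gene of 13 tested on the endoderm and trophoblast list passed, and none of 5 on the sex chromosome list. Xist, the RNA that coats an inactive X chromosome, had 18.1 and 12.7 CPM in CAS129 PSC and 20.8 and 15.8 CPM in CAST PSC, overlapping groups with a log2 fold change of -0.25 (adjusted p = 0.83, edgeR).

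X-linked genes as a group lay lower in the hybrid. The 453 X-linked genes tested had a median log2 fold change of -0.73, against -0.04 for all other genes. Of the X-linked genes, 86 (19%) were lower, against 11.5% of the other genes, and 4 (0.883%) higher, against 2.27% of all genes. Without genes low in hybrid MN the X median was -0.66, and 31 of 404 (7.67%) were lower, against 4.35% of all genes in that fit. The X median lay between -0.99 and -0.51 across the scalings, tools and left-out libraries tried, upper-quartile scaling giving the value nearest 0 with the median of the other genes at 0.16. The number of lower X genes was 53 without CAS129 PSC 1 and 48 without CAST PSC 1. X-linked genes took 1.97% and 2.15% of all counts in CAS129 PSC, against 2.56% and 2.67% in CAST PSC and 2.7% and 2.22% in BL6 PSC. Among autosomes, chromosome 2 had the lowest median, -0.30, and -0.18 without genes low in hybrid MN. On it 173 of 1108 genes were lower (15.6%, against 11.7% of all genes). No sex is given in the labels, and whether the groups differ in the number of X chromosomes was not tested.

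Single X-linked genes differed by different amounts. Otud5, a deubiquitinase, had 21.6 and 22 CPM in CAS129 PSC against 104 and 106 CPM in CAST PSC, a log2 fold change of -2.27 ± 0.30 (adjusted p = 9.5e-04, edgeR). Cstf2, an RNA 3′-end cleavage factor, had 18.4 and 11.2 CPM against 138 and 139 CPM, and Taf1, the largest subunit of the general factor TFIID, 15.6 and 30.8 CPM against 241 and 236 CPM. These 3 were called whichever library was left out. Pdha1, a pyruvate dehydrogenase subunit, had 118 and 120 CPM against 286 and 279 CPM (adjusted p = 0.018, edgeR), and its call was lost whichever of the 4 compared libraries was left out (0.11 to 0.13). Otud5, Cstf2, Taf1 and Pdha1 were each also lower in CAS129 MN than in BL6 MN, with log2 fold changes of -1.86, -2.66, -2.43 and -0.80 (edgeR, adjusted p = 4.2e-09, 3.0e-08, 9.4e-07 and 6.4e-05).

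**Figure D3:**
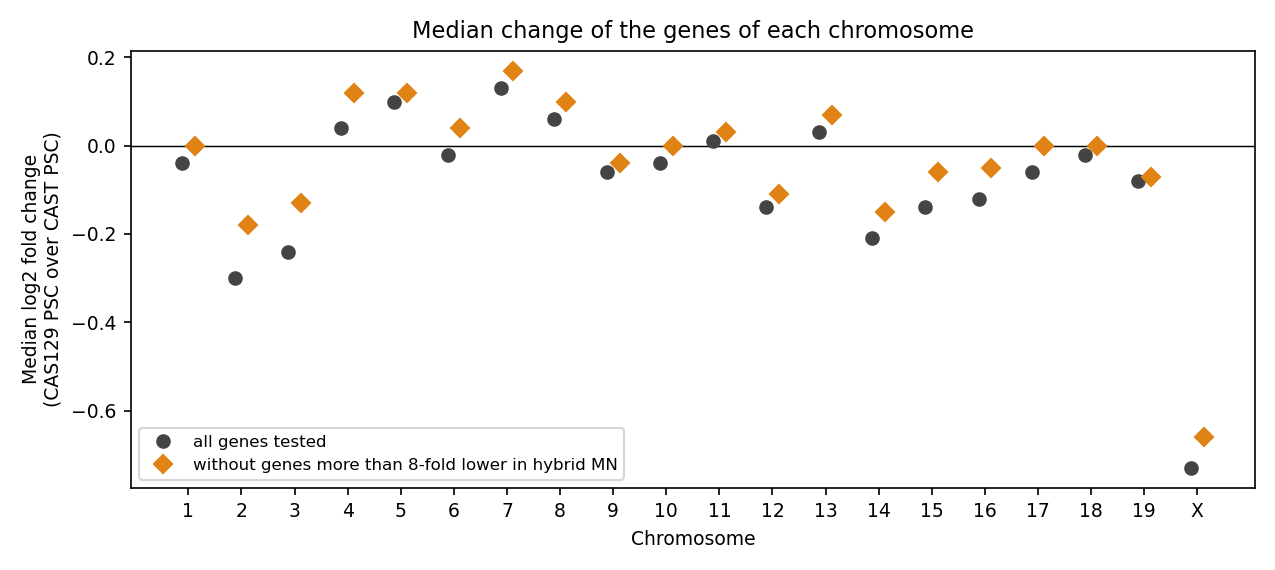
Median log2 fold change of CAS129 PSC over CAST PSC for the genes of each chromosome, with all genes tested (circles) and without genes more than 8-fold lower in hybrid MN (diamonds). The autosomes lie between -0.30 and 0.17, and the X chromosome lies at -0.73 and -0.66.

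The 457 set-apart genes were spread over the genome and over expression levels. They lie on all of the 20 chromosomes 1 to 19 and X, with 1 more, mt-Nd5, on the mitochondrial genome. In CAST PSC their mean levels ran from 10.7 to 2159 CPM with a median of 49.2 CPM, and together they took 4.39% of CAST PSC counts, 4.31% of BL6 PSC counts and no CAS129 PSC counts. They are 5.26% of the 8694 genes with at least 10 CPM in both CAST PSC. The zero counts and the CAST levels chose these genes and are a description only. A 0 means that no read was counted for the gene; whether hybrid reads were counted with the same annotation and genome is not stated in the labels, so a gene not counted and a gene not expressed cannot be told apart, and the fold bounds below are bounds on counted reads. The other direction was rare: 3 genes, Taf9, Mir692-1 and Gm28035, had 0 counts in both CAST PSC and at least 10 CPM in both CAS129 PSC. Taf9, a TFIID subunit gene, had 37 and 63.4 CPM in CAS129 PSC, 0 in CAST PSC and CAST MN, at most 0.439 CPM in BL6 PSC, and up to 22.9 CPM in 129 MN; these 3 genes were named after their values were seen.

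Highest among the set-apart genes in CAST PSC was Rpl13a, a large-subunit ribosomal protein gene, at 1711 and 2607 CPM. With 3 counts over both CAS129 libraries as the floor, 0.277 CPM, it was at least 7800-fold lower in CAS129 PSC; in BL6 PSC it had only 43.8 and 102 CPM. Pgk1, the glycolytic phosphoglycerate kinase gene on X, had 800 and 2353 CPM in CAST PSC, uneven between the CAST libraries, and was at least 5696-fold lower in CAS129 PSC. Hspd1, the mitochondrial chaperonin gene, had 1175 and 1188 CPM in CAST PSC and was at least 4269-fold lower. Actg1 (a cytoplasmic actin), Ptma (prothymosin alpha), Ptbp1 (a splicing repressor) and Ahcy (S-adenosylhomocysteine hydrolase) followed, at least 3459-, 3272-, 2292- and 2121-fold lower. The mitochondrially encoded mt-Nd5, a complex I subunit gene, had 990 and 461 CPM in CAST PSC; BL6 PSC held 1449 and 40.2 CPM of it, so this transcript varied strongly between replicates.

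Set-apart genes also sat inside the lists above. Vars, the valine tRNA synthetase gene, had 388 and 451 CPM in CAST PSC, and Mars, the methionine enzyme's gene, 222 and 176 CPM. Pcna, the DNA polymerase clamp gene, had 445 and 476 CPM in CAST PSC. Txnrd1, the cytosolic thioredoxin reductase gene, had 749 and 557 CPM. All of them had 0 counts in both CAS129 PSC, at sequencing depths at which the floor lies 718-fold or more below their CAST level.

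The libraries that the rule did not use showed the same genes at or near 0 in every hybrid. Of the 457, 449 had 0 counts in all 3 CAS129 MN libraries and 439 in the 129CAS MN library, while 2 had 0 counts in CAST MN, 14 in both 129 MN and 46 in all 7 BL6 MN. Their share of counts was 0.000178% in CAS129 MN and 0.000413% in 129CAS MN, against 3.76% in CAST MN, 3.57% in 129 MN and 3.69% in BL6 MN. In a contrast that uses none of the 4 libraries of the rule, 405 of the 457 (88.6%) were lower in CAS129 MN than in BL6 MN and 0 higher, against 25.5% lower and 27.2% higher among all 15846 genes tested there (edgeR, adjusted p under the threshold). The 4 libraries of the rule entered that fit through the shared estimate of spread and through the filter on low values, which the set-apart genes can pass by their CAST levels; with CAS129 MN and BL6 MN libraries alone, 395 of the 457 were tested and all 395 were lower, which genes at 0 in CAS129 MN that pass the filter by their BL6 levels had to be. Both strains that the hybrid names join thus held reads for nearly all of these genes as MN, while the hybrids of both names held almost none.

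Starting from MN alone gave a like list. Of 8706 genes at 10 CPM or more in all 7 BL6 MN, 410 (4.71%) had 0 counts in all 3 CAS129 MN, and of the 321 set-apart genes among the 8706, 315 did. In PSC, 414 genes had 0 counts in both CAS129 PSC and at least 10 CPM in both BL6 PSC, of which 362 were set apart, whereas 7 genes had 0 counts in both CAST PSC at that BL6 level.

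**Figure D4:**
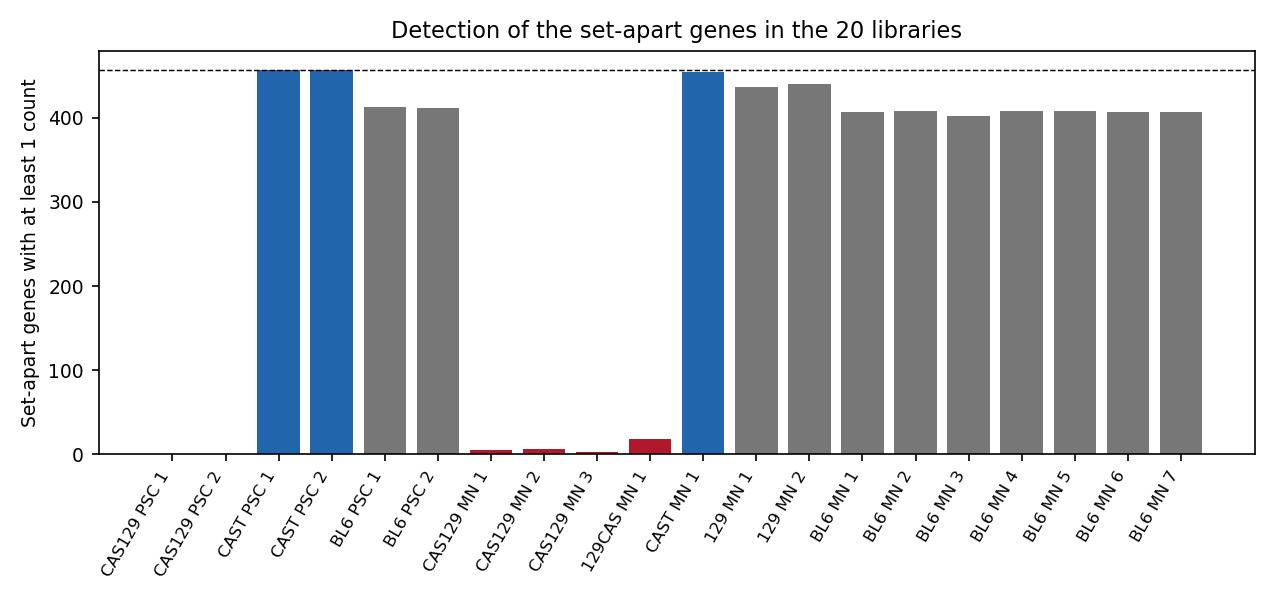
Number of the 457 set-apart genes with at least 1 count in each of the 20 libraries (bars; hybrid libraries red, CAST blue, BL6 and 129 grey; dashed line at 457). The 2 CAS129 PSC libraries stand at 0 by the rule, the 4 hybrid MN libraries stay near 0, and each CAST, BL6 and 129 library detects most of the genes.

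Gene names differed between the set-apart genes and the rest. Of the 455 with an annotation, 75 (16.5%) carried a symbol that RefSeq now lists only as an older name, against 0.364% of the 8237 other genes at that CAST level, and 41 (9.01%) carried a symbol absent from the RefSeq table, against 0.656%. Turned round, 75 of the 105 genes with an older symbol were set apart (71.4%), as were 41 of the 95 with an absent one (43.2%) and 339 of the 8492 with a current one (3.99%). Examples are H2afz, now H2az1, a histone variant gene with 566 and 471 CPM in CAST PSC, Atp5f1, now Atp5pb, an ATP synthase subunit gene with 463 and 525 CPM, and Sept11, now Septin11, with a mean of 466 CPM. Being set apart was chosen first and the name looked up after, but the link was noticed in these data, and its cause was not tested.

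Whole families that were renamed at some time were involved. All 8 septin genes, all 6 genes named March (membrane-associated ubiquitin ligases) and all 6 H2A variant genes at the required CAST level were set apart, under their older names. So were all 9 Seleno (selenoprotein) genes, all 5 Washc genes and both Ccn genes, under newer family names. Other families were mostly present in the hybrid, with 1 of 7 Cct chaperonin genes, 3 of 14 Atp5 genes and 3 of 40 Rpl-named genes set apart. These families were picked after their values were seen.

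Gene classes differed as well. Protein-coding genes were 89% of the set-apart genes, against 98.5% of the others, and long or antisense noncoding genes and processed transcripts were 10.5%, against 1.31%. Of the 48 in that noncoding class, 34 were under 1 CPM in all BL6 PSC, BL6 MN and 129 MN libraries while 47 had at least 1 CPM in CAST MN, so that reads for most of this class were found mainly in CAST. Gm26762, a lincRNA at chr7:34224755-34230236, had 177 and 369 CPM in CAST PSC, a mean of 0 in BL6 PSC and 114 CPM in CAST MN. Gm26882, a lincRNA at chr9:90094178-90095902, had 224 and 279 CPM in CAST PSC, and 97.5% of its exon bases lie under a gene on the opposite strand. Since no strand setting is given for the counting, reads of such overlapping genes cannot be told apart. X-linked genes were 3.74% of the set-apart genes and 3.13% of the others.

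Some of the largest rises were near-identical copies of set-apart genes. Of the 457, 71 had another transcribed locus matching at 95% identity or more over 200 bases or more. That was 15.6% of those with an annotation, against 9.83% of the other genes with at least 10 CPM in both CAST PSC. For 28 of the 71, a copy was in the count table. For 3 of the 28, a copy was called higher in CAS129 PSC, as were 2.27% of all genes tested. The largest fold change among higher genes with at least 1 count in each of the 4 libraries and a mean of 5 CPM or more in the higher group belonged to such a copy: Gm5093, a processed pseudogene at chr17:46439578-46440097, had 1140 and 1320 CPM in CAS129 PSC against 4 and 6.29 CPM in CAST PSC and 2.05 and 3.87 CPM in BL6 PSC. Its log2 fold change was 7.90 ± 0.49 (adjusted p = 3.9e-05, edgeR). Its parent gene Rpl11, at chr4:136028265-136053428, showed the mirror image, with 0 and 0 CPM in CAS129 PSC against 942 and 1364 CPM in CAST PSC. The sums of the pair were 1140 and 1320 CPM in CAS129 PSC against 946 and 1370 CPM in CAST PSC, which overlap.

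The second pair was Gm10184, annotated as protein coding at chr17:89908462-89910449, and Kpna2, a nuclear import receptor gene at chr11:106988629-106999541. Gm10184 had 428 and 526 CPM in CAS129 PSC against 21.9 and 27.9 CPM in CAST PSC (log2 fold change 4.26 ± 0.33, adjusted p = 5.5e-05, edgeR), and Kpna2 had 0 and 0 CPM against 436 and 511 CPM. Together they had 428 and 526 CPM in CAS129 PSC against 458 and 539 CPM in CAST PSC, again overlapping. In MN, which played no part in choosing the pairs, Gm5093 had 460 to 537 CPM in CAS129 MN and 185 CPM in 129CAS MN, against 1.84 CPM in CAST MN and 0.264 to 1.27 CPM in BL6 MN. Gm10184 had 153 to 225 CPM in CAS129 MN and 116 CPM in 129CAS MN, against 3.67 CPM in CAST MN and 0 to 0.74 CPM in BL6 MN. Rpl11 and Kpna2 had 0 counts in all 4 hybrid MN libraries. In the remaining pair, Tuba1b had 23.7 and 18.9 CPM in CAS129 PSC against 9.76 and 7.99 CPM in CAST PSC, and Tuba1c, the set-apart partner, 0 against 18.4 and 18.2 CPM. Here the sums, 23.7 and 18.9 CPM in CAS129 PSC against 28.1 and 26.2 CPM in CAST PSC, did not overlap. In MN, Tuba1b was lower in the hybrids, at 10.1 to 12.8 CPM in CAS129 MN and 5.68 CPM in 129CAS MN, unlike the copies of the other pairs. It had 24.3 and 24.9 CPM in 129 MN, 43.7 CPM in CAST MN and 293 to 466 CPM in BL6 MN. BL6 PSC also held far more Tuba1b than the other PSC, at 888 and 1281 CPM.

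How alike the partners are can be read from a stretch of 240 bases of each transcript, shown because a read from either would match both over most of its length. The sequences are the minus-strand transcripts of GENCODE M21 on GRCm38, written 5′ to 3′ in lower case, with the bases that differ between the partners in capitals. Over the aligned 1968 bases Kpna2 and Gm10184 differ at 2 positions, both of which fall in the stretch shown; Rpl11 and Gm5093 differ at 11 of 520 compared bases, 7 of them in the stretch shown, with 12 further bases of Rpl11 unpaired.
Kpna2: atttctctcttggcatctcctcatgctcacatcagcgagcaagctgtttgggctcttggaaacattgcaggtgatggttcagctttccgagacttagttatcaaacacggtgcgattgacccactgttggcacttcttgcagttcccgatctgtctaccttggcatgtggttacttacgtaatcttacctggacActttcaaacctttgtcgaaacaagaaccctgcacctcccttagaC
Gm10184: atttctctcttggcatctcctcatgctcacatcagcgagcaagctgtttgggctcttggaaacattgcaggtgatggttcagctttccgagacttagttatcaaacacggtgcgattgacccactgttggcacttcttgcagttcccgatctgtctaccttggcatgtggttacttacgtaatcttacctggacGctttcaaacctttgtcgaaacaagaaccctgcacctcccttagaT
Rpl11: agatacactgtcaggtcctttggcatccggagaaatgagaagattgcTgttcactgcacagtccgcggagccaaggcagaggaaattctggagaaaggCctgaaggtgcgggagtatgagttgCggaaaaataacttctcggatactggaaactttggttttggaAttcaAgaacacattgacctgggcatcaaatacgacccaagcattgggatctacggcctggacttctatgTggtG
Gm5093: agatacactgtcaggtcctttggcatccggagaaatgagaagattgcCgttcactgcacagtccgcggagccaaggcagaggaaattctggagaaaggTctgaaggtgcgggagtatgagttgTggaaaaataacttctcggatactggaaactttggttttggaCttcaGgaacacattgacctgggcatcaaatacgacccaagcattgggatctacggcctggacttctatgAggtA
In which locus the sampled reads arose was not tested.

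**Figure D5:**
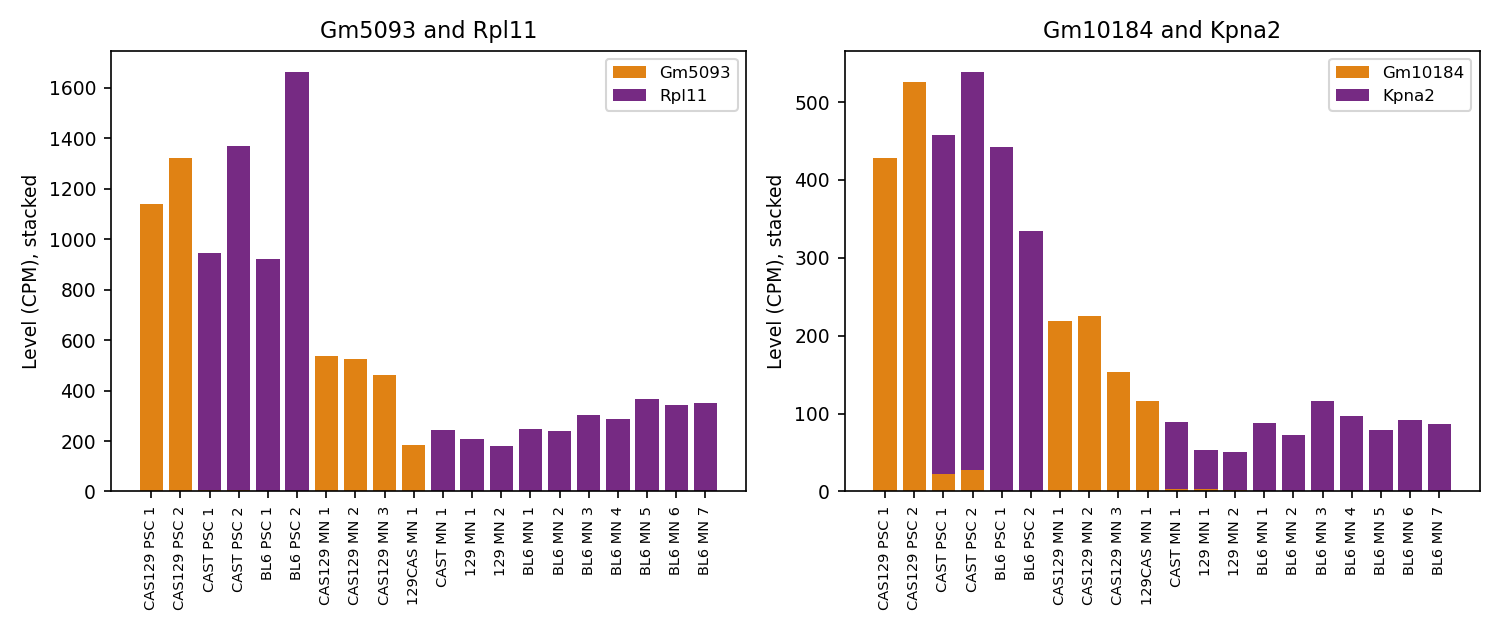
Stacked levels, in CPM, of the copy (orange) and its set-apart partner (purple) in the 20 libraries, for Gm5093 with Rpl11 and for Gm10184 with Kpna2. The 6 hybrid libraries hold the copy and none of the partner, while the CAST, 129 and BL6 libraries hold almost only the partner, with Gm10184 at 21.9 and 27.9 CPM in CAST PSC.

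The other large rises had no set-apart partner. Acsf2, an acyl-CoA synthetase family gene, measured 161 and 142 CPM in CAS129 PSC against 6.23 and 6.03 CPM in CAST PSC and 36.3 and 45.4 CPM in BL6 PSC, a log2 fold change of 4.62 ± 0.33 (adjusted p = 4.5e-05, edgeR). Abi3, an adaptor of actin regulation, had 28.2 and 28.1 CPM in CAS129 PSC against 0.235 and 0.524 CPM in CAST PSC and 23.4 and 36.2 CPM in BL6 PSC; 75.8% of its exon bases lie under a gene on the opposite strand. Isg20l2, an exonuclease gene of ribosome maturation, had 51.8 and 40.7 CPM against 2.94 and 1.96 CPM, with 128 and 131 CPM in BL6 PSC. For Abi3, Isg20l2, Neil2 and Mrpl41 the CAST libraries were the low ones and BL6 PSC was as high as the hybrid or higher. The 12 largest rises ran from 4.22 to 7.90 on the log2 scale and none was low in hybrid MN. Of all 269 rises that met the same limits on counts and level, 2 were. Among the 12, Ushbp1 and Psma8, each with at most 3 counts in a CAST library, lost the call when CAST PSC 1 was left out. Their log2 fold changes were then 4.47 and 3.90.

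Lower genes with at least 1 count in each of the 4 libraries and a mean of 5 CPM or more in CAST PSC numbered 823. Of these, 182 were low in hybrid MN, among them all of the 12 largest falls. Those 12 include Cct7, a subunit gene of the cytosolic chaperonin, at 0.498 and 0.208 CPM in CAS129 PSC against 990 and 1309 CPM in CAST PSC. Another is Sf3b4, a splicing factor gene, at 0.83 and 0.208 CPM against 305 and 284 CPM. Tmsb4x, the X-linked gene of the actin-binding peptide thymosin beta 4, had 3 counts in the hybrid pair against 1554 in the CAST pair, or 348-fold lower (95% exact counting interval 119 to 1689). The remaining 9 were Phf3, Rbm8a, Ndufb9, Nup160, Smyd5, Gm5239, Abl1, Stag2 and Rev1. With genes low in hybrid MN left out, the largest falls were led by Nrm (nurim, an inner nuclear membrane protein gene) at 0.664 and 0.208 CPM against 42.3 and 40.7 CPM, followed by Foxh1, Ints12 (an Integrator subunit gene) at 0.332 and 0.831 CPM against 38.5 and 37.2 CPM, Krt16 and Sox11. Nrm and Ints12 were also lower in CAS129 MN than in BL6 MN, with log2 fold changes of -1.64 and -2.64.

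At the threshold of the rule, the nearest genes inside were Ube2l6, with 10.1 and 14 CPM in CAST PSC, Selenoi, with 14.8 and 10.2 CPM, and Grk3, with 18.2 and 10.3 CPM. Just outside were Gm11906, with 10.9 and 9.95 CPM, Exog, with 9.88 and 10.2 CPM, and Tesmin, with 9.76 and 9.82 CPM. All 6 had 0 counts in both CAS129 PSC and in all 4 hybrid MN libraries, on both sides of the line at 10 CPM.

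The calls that remained without genes low in hybrid MN were followed into MN as well. The contrast of CAS129 MN with BL6 MN compares no PSC library. Its fit did include the PSC libraries, through the shared estimate of spread and the filter on low values. These MN libraries had also decided which genes were left out as low in hybrid MN, so the shares below are a description. Of the 556 lower genes, 431 (77.5%) were lower in CAS129 MN than in BL6 MN and 17 higher, where 19.1% of the 12795 genes were lower and 32.2% higher. Of the 155 higher genes, 73 (47.1%) were higher in CAS129 MN and 18 lower. The 431 make up 10.7% of all genes lower in CAS129 MN, and the 73 make up 1.69% of all genes higher there. Stem cell genes also differed between the MN groups: Tdgf1 had 82.7 to 240 CPM and Pou5f1 65.7 to 179 CPM in CAS129 MN, against 0 to 0.365 CPM and 0.407 to 1.64 CPM in BL6 MN, while 129CAS MN held 0.165 and 0 CPM. What part stem cell RNA in CAS129 MN has in these shares was not tested.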

How the data were processed

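The deposited gene table holds whole-number read counts per gene, made by the authors and not normalized. Reads were aligned with STAR to GRCm38 (mm10), per the submitters' processing notes; the counting program, annotation, strand setting and the genome used for hybrid reads were not given in the sources used here. PSC and MN RNA were extracted with different kits, per the labels' protocols, and no PSC library was tested against an MN library. Of the 27 samples, 20 (6 PSC, 14 MN) were used; 7 samples and 8 count columns were not used here.

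Counts of the 6 PSC libraries were fitted with edgeR 4.0.16 (TMM, quasi-likelihood, contrast CAS129 PSC minus CAST PSC) for genes at 1 CPM or more in at least 2 libraries, with Benjamini-Hochberg adjustment at 0.05; SE is the absolute log2 fold change over the square root of F. MN levels and the contrast CAS129 MN minus BL6 MN come from a second fit, of all 20 libraries. DESeq2 1.42.0 was run as an alternative, in R 4.3.3. Positions and biotypes come from GENCODE M21 (27030 of 27071 identifiers matched), current symbols from RefSeq, and near copies from blastn 2.17.0 on M21 transcripts. The 3-count floor and the exact intervals cover counting error only. Replicates differed by more than sampling noise (chi-square per degree of freedom 24.61 in CAS129 PSC, 25.98 in CAST PSC and 114.96 in BL6 PSC). The BL6 pair enters the shared estimate of spread.

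The members and lists were chosen with earlier results of these data known. Named are the Tdgf1, Sox11, Pou5f1, Sox2, Xist, Pgk1 and Vars genes, up to 3 called genes a list by level, the 12 largest rises and falls with a mean of 5 CPM or more in the higher group and at least 1 count in each library, the 15 set-apart genes highest in CAST PSC with the listed ones, and the 3 nearest either side of 10 CPM; further genes were named after their values were seen. Simulated counts covered 13404 genes, of which 13208 were left unchanged. The fit called 25 of 33 genes raised by 3 on the log2 scale and 21 of 33 lowered by 3. It called 15 and 14 of 33 at 2, and 0 of 32 at 1, with 5 false calls. Some genes that the rule would name are not reported here.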

Additional observations from a re-analysis of the deposited data

How the results depend on the processing

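The number of genes higher in CAS129 PSC than in CAST PSC moved most. Beside 313, it was 580 with upper-quartile scaling, 525 with no filter, 620 with DESeq2, 550 with only the 4 libraries compared, 951 with all 20 libraries, 540 with the replicate number as a block, 155 without genes low in hybrid MN and 64 to 538 with 1 library left out. The number lower, 1620, was 2572 with all 20 libraries, 1031 without the set-apart genes, 556 without genes low in hybrid MN, 1886 with the block and 1020 to 1938 with 1 library left out. The log2 fold change of Sox2, -0.02, was 0.00 with RLE scaling, 0.19 with upper-quartile scaling, 0.01 with a 5 CPM filter, 0.00 with DESeq2, and -0.18 to 0.17 with 1 library left out. Of 65 called named genes, 40 kept the call under every alternative that gave a value and 25 lost it under 1 or more. The set-apart genes lower in CAS129 MN than in BL6 MN numbered 388 to 405 under the alternatives run. The replicate numbers pair samples only by number; deviations correlated at 0.416 between CAS129 and CAST PSC, 0.014 between CAS129 and BL6 PSC and 0.351 between CAST and BL6 PSC. With the block, 5 of 17 mesenchyme and fibroblast genes were lower, beside 1 without it, 4 of 19 Wnt genes beside 2, and 12 of 74 ribosomal protein genes were higher beside 4. Beyond the library left out or the genes removed, the cause of these moves was not tested. There were 2 libraries a group, and the hybrid ones were the shallowest. In simulated counts, 0 of 32 genes raised by 1 on the log2 scale and 0 of 32 lowered by 1 were called. With 13208 of 13404 genes unchanged there and 14.0% of genes called in the data, that is no detection limit for the data. Pfkm (1.05), Stat2 (1.05) and Mcm4 (-1.08) were called in the main fit, each losing the call under some alternatives.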
